A study of Mus musculus with 516 samples.

Results

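The cells described here, called itch-type, are naive dorsal root ganglion cells with reads of the receptor genes Mrgpra3 or Mrgprb4. Mrgpra3 marks neurons of itch, while Mrgprb4 marks fibres that answer to gentle stroking, so the name is a label for the group. A cell was taken where Mrgpra3 or Mrgprb4 reached 50 CPM (reads of a gene per 1000000 reads of that cell), Mrgprd stayed under 100 CPM and Th under 300 CPM. The rule found 72 of the 306 naive cells and of the 516 cells in all. In C57BL/6 mice 22 naive cells met it beside 110 other naive cells, and in CAST/Ei mice 50, with 234 other naive cells over both strains. The study sequenced single cells of dorsal root ganglia, where the cell bodies of the body's sensory neurons lie, from these 2 inbred strains. Naive cells were captured soon after dissociation, while cultured cells, which the study treats as an injury state, were kept for 48 h with the mitotic inhibitor ara-C added at 24 h and are used here only to ask whether any of them meets the same rule. All were passed over Percoll of density 1.04 and through a 35 µm mesh before capture on a microfluidic chip, so only cells that survive these steps are described. The labels give the strain and no other genotype, and name no animal, culture or chip run. Cells of a strain are therefore not replicates: a strain counts as 1 sample, no difference has a test, and each comparison gives both values with the spread over cells.

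Itch-type neurons are small sensory neurons with unmyelinated fibres to the skin, and many of their receptors belong to the Mas-related G protein-coupled receptor (Mrgpr) family. Mrgpra3 is a receptor for the itch-inducing drug chloroquine and marks neurons whose activity evokes scratching, Mrgprx1 (also known as MrgprC11) answers to the peptide BAM8-22, and Mrgpra1 is a receptor for bilirubin. Mrgprb4 marks fibres of hairy skin that answer to gentle stroking. Mrgprd marks the neighbouring non-peptidergic neurons, which answer to beta-alanine, and Th, tyrosine hydroxylase, marks the low-threshold mechanoreceptors among the C fibres.

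The Mrgpr genes on which the results turn lie in 1 cluster on chromosome 7, on the minus strand (GRCm38, GENCODE M21). Mrgpra3 spans 47588950 to 47601372, Mrgpra4 47980837 to 47982095, Mrgprb5 48167983 to 48169019 and Mrgprb4 48198070 to 48199288. Mrgpra2a spans 47426328 to 47452139 and its near copy Mrgpra2b 47463806 to 47528862. Stretches ahead of the neighbours Mrgprb4 and Mrgprb5 are shown because these related genes were high in different CAST/Ei cells. Both stretches are on the minus strand of GRCm38.p6 (RefSeq), written 5′ to 3′, at chr7:48199289-48199428 for Mrgprb4 and chr7:48169096-48169235 for Mrgprb5. Each begins 250 bases ahead of the start that RefSeq gives, and capitals mark the bases that differ.
Mrgprb4: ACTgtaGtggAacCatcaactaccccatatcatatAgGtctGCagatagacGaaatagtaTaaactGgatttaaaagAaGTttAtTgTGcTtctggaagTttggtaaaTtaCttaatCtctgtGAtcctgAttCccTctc
Mrgprb5: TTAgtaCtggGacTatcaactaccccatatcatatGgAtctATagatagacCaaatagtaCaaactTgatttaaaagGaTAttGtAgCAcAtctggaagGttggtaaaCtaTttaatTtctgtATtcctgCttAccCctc
Of the 140 bases, 110 were identical between both genes.

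The other pair is Mrgpra2a and Mrgpra2b, shown because both were lower in CAST/Ei and because reads cannot be told apart where the genes are the same. The 250 bases ahead of the RefSeq start of Mrgpra2a, on the minus strand of GRCm38.p6 (RefSeq) at chr7:47452165-47452414, have no capitals because all 250 are identical to those ahead of Mrgpra2b.
Mrgpra2a: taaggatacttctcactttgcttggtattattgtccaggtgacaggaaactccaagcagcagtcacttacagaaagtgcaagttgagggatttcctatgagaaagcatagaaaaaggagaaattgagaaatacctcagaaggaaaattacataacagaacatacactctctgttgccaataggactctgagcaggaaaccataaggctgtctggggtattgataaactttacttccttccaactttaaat
Within the transcripts, 87.1% of the 50-base windows of Mrgpra2a are also in Mrgpra2b, so the division of reads between them is uncertain and the pair is also given as a sum. Mrgpra3 shares 5.62% of its windows with Mrgpra4, and Mrgprb4 shares 0.684% with Mrgprb5. Of 19 Mrgpr genes listed, 11 are in the count table.

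The C57BL/6 itch-type cells held 65542 to 2057832 reads each with a median of 688965, and the CAST/Ei cells 80058 to 1926243 with a median of 970322. The median number of genes with a read was 8513.5 and 8499, and no 2 columns of the table were identical. The cells carried the general neuronal genes at the level of other naive cells, with a summed level of 25 pan-neuronal genes whose median was 18730.4 against 18686 CPM in C57BL/6 and 23347 against 24107 CPM in CAST/Ei.

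Most cells that met the rule carried Mrgpra3 far above the minimum. In C57BL/6, 14 of 22 cells had 500 CPM or more of it, and in CAST/Ei 42 of 50 did. By the higher of both genes, the lowest C57BL/6 cells inside the rule had 65.8 and 76.7 CPM and the highest outside 40.2 and 38.5 CPM. The lowest CAST/Ei cells inside had 54.3 and 54.5 CPM and the highest outside 47.6 and 34.3 CPM. A further 5 C57BL/6 and 19 CAST/Ei naive cells had enough Mrgpra3 or Mrgprb4 and were left out by an upper limit, 4 and 15 of them by that on Mrgprd. No doublet caller was run, so columns that hold several cells were not marked.

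The markers go against the label in some cells near the minimum. Of the cells with Mrgpra3 under 200 CPM, 5 in C57BL/6 and 7 in CAST/Ei, 1 and 4 carried 1000 CPM or more of Tac1, the substance P gene of peptidergic neurons. Another such cell in each strain carried Sst and Nppb, which mark a separate itch population, at 912 and 838 CPM in C57BL/6 and at 2423 and 1349 CPM in CAST/Ei. These cells were kept because the rule takes them.

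Itch-type cells made up 16.7% of naive C57BL/6 cells (exact Clopper-Pearson 95% interval 10.7 to 24.1) and 28.7% of naive CAST/Ei cells (22.1 to 36.1). The intervals overlap, and like all below they cover counting error only, since PCR reads without molecular identifiers are not independent molecules and cells of 1 dissociation are not independent samples.

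**Figure D1:**
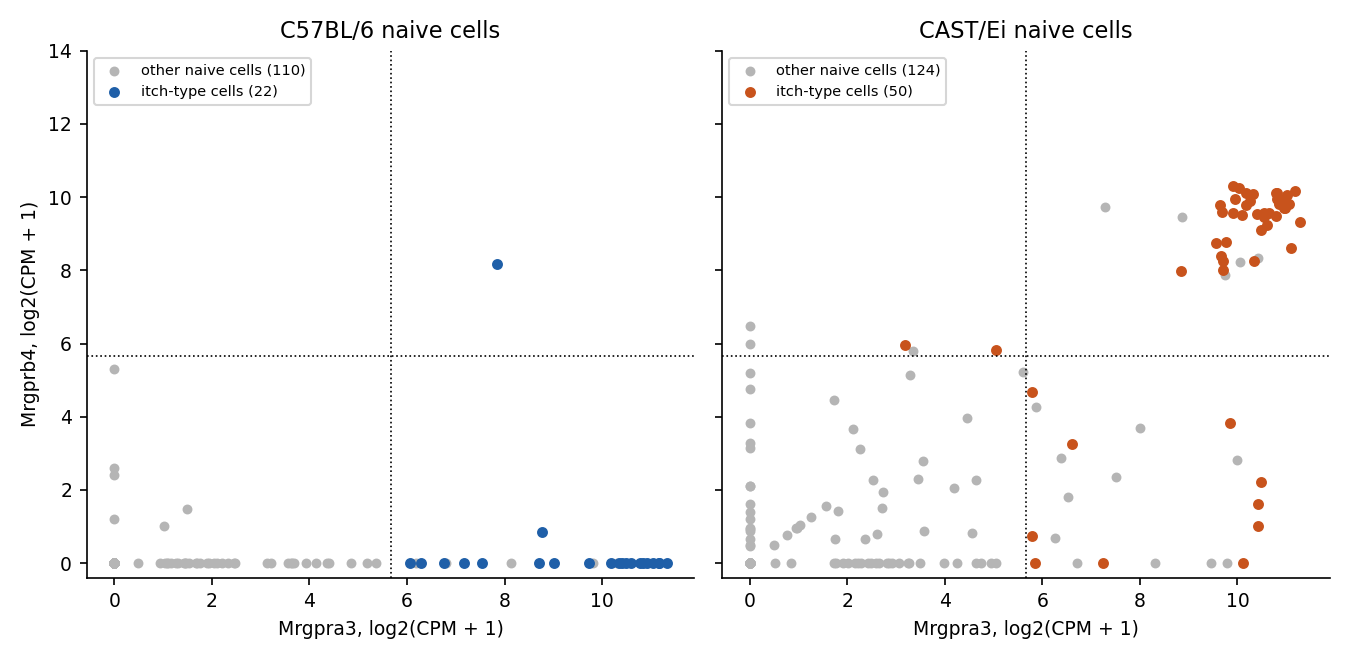
Mrgpra3 (horizontal axis) and Mrgprb4 (vertical axis), log2(CPM + 1), in every naive cell of each strain. Coloured points are the 22 C57BL/6 and 50 CAST/Ei itch-type cells, grey points the other naive cells, and dotted lines the minimum of 50 CPM. Grey points past a line were left out by Mrgprd or Th. In C57BL/6, 1 itch-type cell lies above the Mrgprb4 line, and in CAST/Ei 40 do.

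The strains differed in which Mrgpr receptors accompanied Mrgpra3. Mrgpra3 itself ran from 65.8 to 2567 CPM with a median of 1229.6 over the C57BL/6 cells and from 8.15 to 2494 CPM with a median of 1245 over the CAST/Ei cells. The medians were close and the ranges overlapped. Mrgpra3 and Mrgprb4 chose the cells, so their levels are a description.

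Mrgprb4 had no read in 20 of the 22 C57BL/6 cells and reached 290.1 CPM in 1 of them. In CAST/Ei it ran from 0 to 1259 CPM with a median of 718, and 40 of 50 cells stood at 50 CPM or more. By the 50 CPM minimum, C57BL/6 had 21 cells with Mrgpra3 and without Mrgprb4, 1 with both and 0 with Mrgprb4 alone. CAST/Ei had 10, 38 and 2, so cells of Mrgprb4 alone were too few to set against cells of Mrgpra3 alone.

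Mrgpra4, a neighbour of Mrgpra3 in the cluster, was also high in CAST/Ei cells and low in C57BL/6 cells. It ran from 0 to 45.8 CPM with a median of 3.64 in C57BL/6 and from 0 to 1242 CPM with a median of 565 in CAST/Ei. Of 22 and 50 cells, 0 and 42 reached 50 CPM. The summed reads gave 5.58 CPM (95% Poisson interval 4.59 to 6.73) and 502 CPM (496 to 508), a log2 ratio of 6.26, and the other naive cells held 0.0655 and 14.7 CPM.

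Mrgpra1, the bilirubin receptor gene, had medians of 15.1 and 163.2 CPM, with highest cells at 135.1 and 536 CPM. Mrgpra9 stood at 4.21 and 34.6 CPM over the summed reads of each strain. Mrgprx1, the BAM8-22 receptor gene, stood at 35.6 and 31.6 CPM, and the summed levels of this gene did not show the strain gap of the others. Mrgpre, a further member of the family, stood at 45.5 and 86.9 CPM against 35.1 and 61.5 CPM in other naive cells.

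Mrgpra2a and Mrgpra2b ran the other way. Their sum ran from 0 to 879 CPM with a median of 316 over the C57BL/6 cells and from 0 to 59.2 CPM with a median of 6.91 over the CAST/Ei cells. In C57BL/6 20 of 22 cells reached 50 CPM of the pair, and in CAST/Ei 1 of 50 did. Over all reads the pair stood at 304 CPM (296 to 312) and 7.48 CPM (6.73 to 8.28), so the gap was also there in the sum of both genes. Of the other naive cells 36 of 110 in C57BL/6 and 2 in CAST/Ei reached 50 CPM. Whether reads of the CAST/Ei copies of these genes were placed as well as those of C57BL/6 was not tested.

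The same gaps were seen at equal depth. With each cell thinned to 200000 reads, which left out 1 itch-type cell per strain, 4.76% of C57BL/6 and 83.7% of CAST/Ei itch-type cells had at least 5 reads of Mrgprb4, against 4.55% and 88% before thinning. For Mrgpra4 the thinned shares were 4.76% and 87.8%, against 31.8% and 90%, and for Mrgpra2a 85.7% and 2.04%, against 90.9% and 6%. In the other naive cells, whose median depths of 706210 and 954074 reads were close to those of the itch-type cells, the thinned shares of Mrgprb4 were 0.971% and 9.65%.

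**Figure D2:**
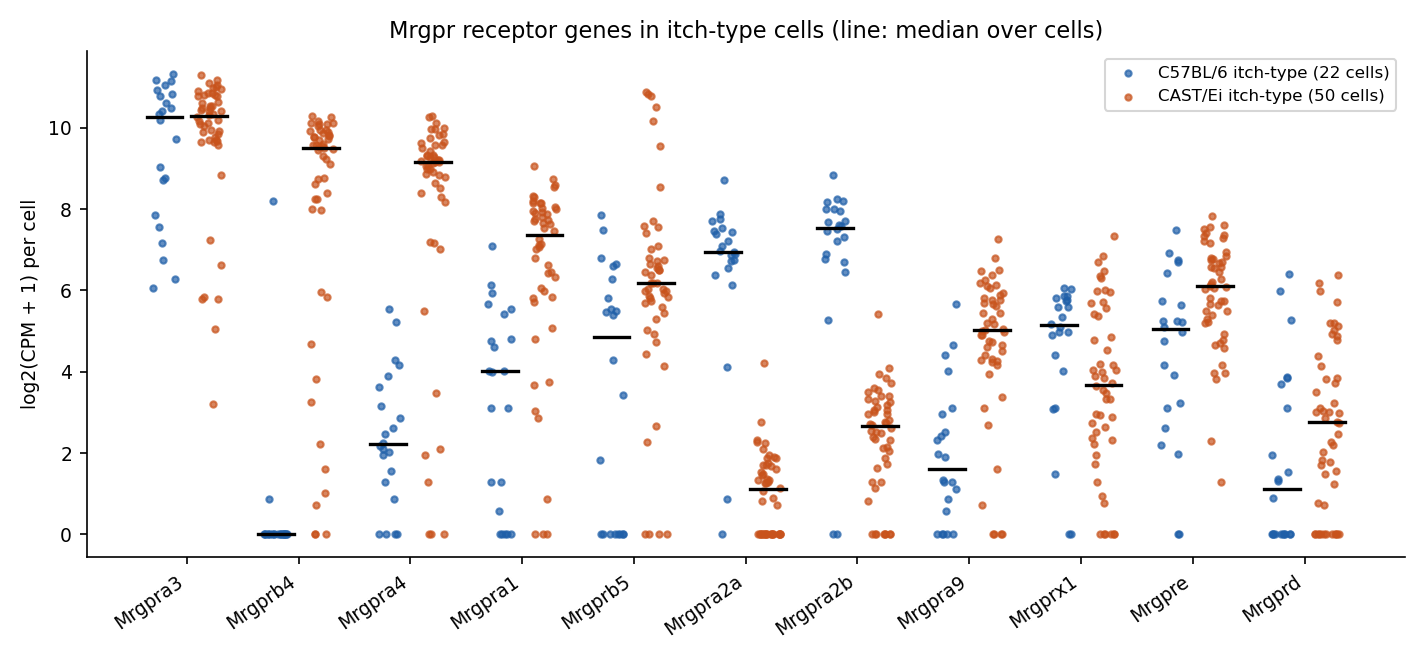
Level of 11 Mrgpr genes, log2(CPM + 1), in each of the 22 C57BL/6 and 50 CAST/Ei itch-type cells, with a line at the median over cells. Mrgprb4, Mrgpra4 and Mrgpra1 sit higher in CAST/Ei and Mrgpra2a and Mrgpra2b higher in C57BL/6, while the medians of Mrgpra3 are 1229.6 and 1245 CPM.

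Across the cells of a strain, Mrgpra4 and Mrgpra1 were higher where Mrgpra3 was, on the log2(CPM + 1) scale. In CAST/Ei Pearson's r with Mrgpra3 was 0.88 for Mrgpra4 and 0.86 for Mrgpra1 over 50 cells, and in C57BL/6 0.61 and 0.71 over 22 cells. Spearman's rho was 0.79 and 0.73 in CAST/Ei and lower, 0.49 and 0.54, in C57BL/6. Mrgprb4 had r with Mrgpra3 of 0.55 in CAST/Ei and -0.21 in C57BL/6, where 1 cell reached 50 CPM of it. Mrgpra2a moved with Mrgpra2b in C57BL/6 with r of 0.99, over reads that both genes share, and Mrgprb4 and Mrgprb5 had r of 0.08 in CAST/Ei. Mrgpra3 and Mrgprb4 chose the cells, so the r between them is shaped by the rule. The coefficients include the cells with Mrgpra3 under 200 CPM and were not taken without them. In CAST/Ei these 7 cells had at most 43.7 CPM of Mrgpra4, so r there also holds the gap between them and the rest. These coefficients only describe the cells, which share a library preparation and differ in depth.

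Set against the other naive cells, the itch-type cells of both strains shared a set of higher genes beyond the Mrgpr family. A gene was called where its summed CPM differed at least 2-fold, on the log2 ratio of CPM + 1, with 10 CPM or more in the higher group. Of 11251 genes, 5.91% were called higher and 11.9% lower in C57BL/6, and 2.71% and 7.95% in CAST/Ei. In both strains 1.01% were higher and 413 genes (3.67%) lower, and 49 (0.436%) were called in opposite directions. The count of lower genes was 792 without the cells under 200 CPM of Mrgpra3 and 185 against Mrgprd-type cells alone, where 280 genes were higher. The median log2 ratio over all genes was -0.12 and -0.11, and scaling by medians of ratios brought it to -0.01 and -0.00. Genes of this contrast chose the cells, so its values are a description. Of the 11 Mrgpr genes, 4 were higher and 1, Mrgprd, lower in both strains, with median log2 ratios of 2.56 and 1.69. The 4 are Mrgpra3, Mrgprb4, Mrgpra1 and Mrgprx1. The rule used Mrgpra3, Mrgprb4 and Mrgprd, so only the calls of Mrgpra1 and Mrgprx1 lie outside it.

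Among the genes named for their ratio, Tmprss11c came next after Mrgpra3. It belongs to a family of membrane-bound serine proteases and ran from 0 to 269 CPM with a median of 63.7 in C57BL/6 itch-type cells and from 0 to 437 CPM with a median of 50.1 in CAST/Ei ones, with medians of 0 in the other naive cells. Its log2 ratio to other naive cells was 4.37 and 3.11.

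The receptors for growth factors of the GDNF family were divided. Gfra1, the co-receptor of GDNF, had medians of 138.6 and 178 CPM against 2.91 and 2.32 CPM in the other cells. Gfra2, the co-receptor of neurturin, lay on the other side, at summed levels of 20.6 and 19.5 CPM against 188 and 203 CPM. Gfra3, the co-receptor of artemin, was also lower, at 18.5 and 87.4 against 137.3 and 281 CPM. Ret, the signalling receptor they share, was not called, at 348 and 338 against 357 and 431 CPM. Of 21 growth factor and cytokine receptor genes, 1 was higher and 2 were lower in both strains (all genes: 1.01% and 3.67%).

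Etv1, a transcription factor of the ETS family, had medians of 486 and 821 CPM against 5.90 and 39.9 CPM, and 21 of 22 and 49 of 50 itch-type cells held 10 CPM or more. Moxd1, a monooxygenase related to the enzyme that makes noradrenaline, stood at 332 and 695 against 74.2 and 99.1 CPM over the summed reads. Lgi1, a secreted synaptic protein, stood at 366 and 179.5 against 36.7 and 61.999 CPM, with 12.9% of its transcript windows found in other genes. These 3 genes were thus higher in itch-type cells of both strains.

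Gda, guanine deaminase, stood at 252 and 92.6 against 28.5 and 21.4 CPM. Galc, a lysosomal enzyme of myelin lipid breakdown, Smyd3, a methyltransferase, and Ttyh2, Fnbp1l, Cntnap4, Mctp2 and Krt27 had log2 ratios from 1.16 to 3.80, both of them those of Mctp2. For Krt27, 11.1% of the transcript windows are found in other keratin genes. Mctp2 stood alike in itch-type cells of the strains, at 71.1 and 77.1 CPM, while the other naive cells held 31.2 CPM in C57BL/6 and 4.59 CPM in CAST/Ei.

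**Figure D3:**
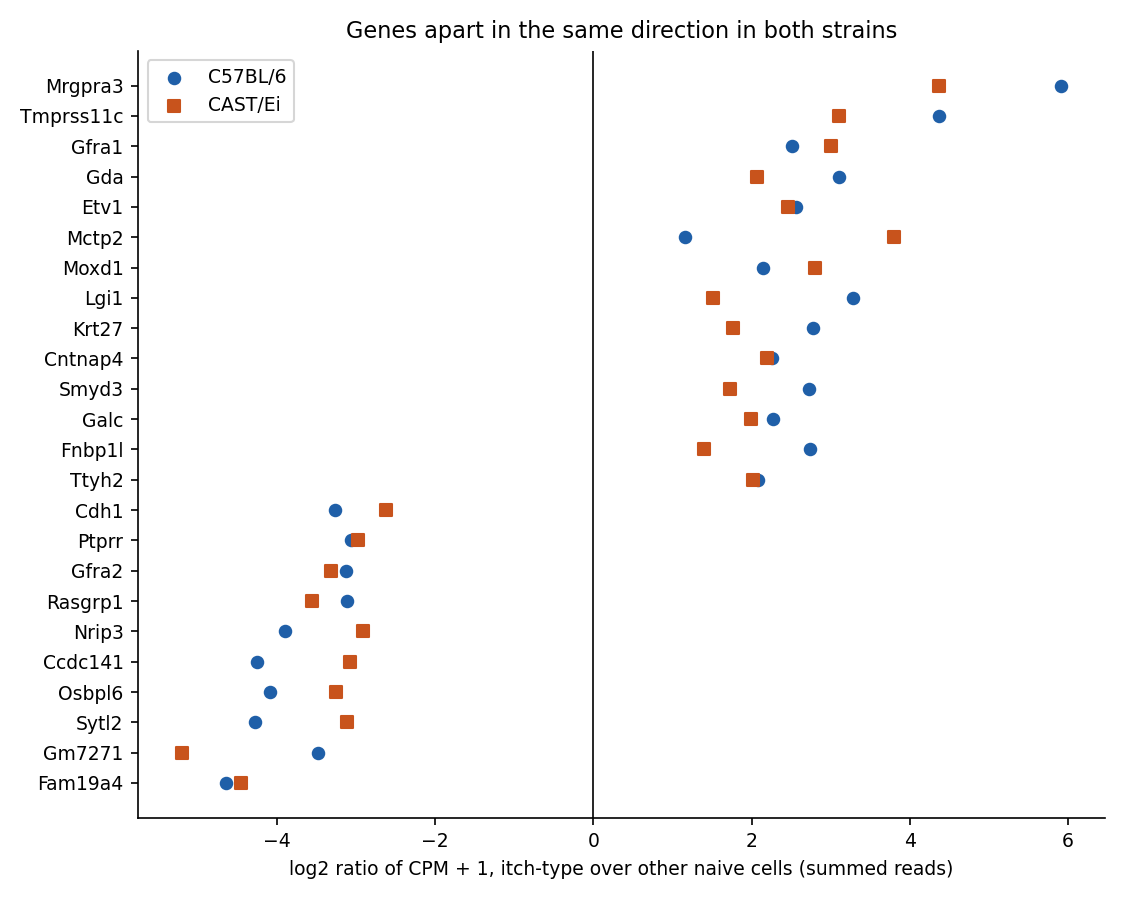
Log2 ratio of summed CPM + 1, itch-type over other naive cells, for the 14 highest and 10 lowest genes by the mean over both strains, with circles for C57BL/6 and squares for CAST/Ei. Mrgpra3 leads with 5.91 and 4.36, and Fam19a4 and Gm7271 stand lowest. Mrgpra3 chose the cells, and all naive cells with Th at 300 CPM or more are among the other naive cells.

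The lowest genes included several of low-threshold C fibres. Of 13 genes listed for those fibres, 10 were lower in both strains and 0 higher, beside 3.67% and 1.01% of all genes. Their median log2 ratios were -3.13 and -2.86, and Th among them was held low by the rule. The rule also placed every naive cell with Th at 300 CPM or more among the other naive cells. Low ratios of genes that such cells carry are thus shaped by the rule and are a description. By the rule for naming genes, Fam19a4, a secreted protein of those fibres, stood lowest, at 14.01 and 14.4 CPM against 373 and 338 CPM. Piezo2, the channel of touch, was lower but present, with medians of 137.7 and 98.7 CPM against 326 and 422 CPM. Rasgrp1, an exchange factor of Ras, Sytl2, Ccdc141, Osbpl6, Nrip3, Ptprr and Cdh1, which encodes E-cadherin, had log2 ratios from -4.28 to -2.62. Gm7271, a predicted gene, had ratios of -3.48 and -5.20. A gene on the opposite strand overlaps 10.96% of the exonic bases of Ptprr.

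Of 33 transcription factor genes, 1 (Etv1) was higher and 3 were lower in both strains (all genes: 1.01% and 3.67%). Runx1, which non-peptidergic neurons need in development, was among the lower, at 151.2 and 43.6 CPM against 415 and 229 CPM in other naive cells. Hopx, a homeodomain protein, was called in opposite directions, at 15.4 against 47.5 CPM in C57BL/6 and at 276 against 108.7 CPM in CAST/Ei.

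The itch-type cells held the CGRP gene and, in most cells, little of the substance P gene. Calca, which encodes the peptide CGRP, ran from 161.2 to 16611 CPM with a median of 8995 in C57BL/6 and from 182 to 15493 CPM with a median of 3952 in CAST/Ei. The other naive cells had medians of 389 and 1605 CPM with ranges that reached higher. Tac1 had medians of 26.3 and 27.1 CPM, against 206 and 102.3 CPM in other cells, and 2 and 5 itch-type cells held 1000 CPM or more. Nmb, the gene of neuromedin B, a transmitter of sensory neurons, had medians of 152.5 and 338 CPM.

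Of 23 neuropeptide and transmitter genes, 1 (Pcsk2, an enzyme that processes peptides) was higher and 4 were lower in both strains. Of 10 peptidergic genes 0 were higher and 2 lower, and of all genes 1.01% and 3.67%. Penk, an opioid precursor, stood at 0.101 and 4.41 CPM against 14.8 and 245 CPM. Gal, which encodes galanin, stood at 36.5 and 96.6 against 167.1 and 215 CPM. The median log2 ratio of the peptidergic genes in C57BL/6, -1.37, turned to 1.34 when only Mrgprd-type naive cells were the reference.

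Of 19 other receptors for itch mediators in the table, 2 were higher (Hrh1 and P2ry2) and 2 lower (Htr1d and Lpar3) in both strains. The shares over all genes were 1.01% and 3.67%. Hrh1, a histamine receptor gene, stood at 41.96 against 1.54 CPM in C57BL/6 and 25.8 against 8.53 CPM in CAST/Ei. In C57BL/6 17 of 22 cells held 10 CPM or more of it, and in CAST/Ei 10 of 50. Htr1d, a serotonin receptor gene, was nearly missing, at 0.761 and 0.203 CPM against 66.3 and 123.6 CPM. Osmr, a subunit of the receptors for oncostatin M and interleukin 31, was not called, at 162.99 and 170.8 CPM over the summed reads against 155.7 and 156.6 CPM. Over cells its medians were 131.2 and 101.7 CPM against 3.78 and 32.4 CPM, and 20 of 22 and 49 of 50 itch-type cells held 10 CPM or more. Its partner Il31ra had a median of 0 CPM in the itch-type cells of both strains.

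Among 20 other G protein-coupled receptor genes, 1 was higher and 3 were lower in both strains (all genes: 1.01% and 3.67%). Galr1, a galanin receptor gene, was the higher one, at 37.4 and 64.1 CPM against 14.3 and 9.11 CPM. The cannabinoid receptor gene Cnr1 was lower, at 18.8 and 37.4 CPM against 276 and 157.8 CPM.

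Genes of the signalling chain below Mrgpr receptors were present in the cells. Gna14, a G protein subunit of the Gq class, and Plcb3, the phospholipase it acts on, had medians of 468 and 755 CPM and of 162.6 and 179 CPM. Rgs4, a regulator of G protein signalling, had medians of 7144 and 7045 CPM against 3013 and 2110.2 CPM. Of 28 transduction genes it was the only one called higher in both strains, with 3 lower (all genes: 1.01% and 3.67%). The channel gene Trpa1, on which chloroquine itch depends, had medians of 14.02 and 221 CPM in the itch-type cells and 12.2 and 124.8 CPM in other naive cells. The strain gap in Trpa1 was thus seen inside and outside the itch-type cells. Trpv1, the capsaicin receptor gene, had medians of 36.8 and 0 CPM.

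Of the 54 ion channel genes 3 were higher and 4 lower in both strains, beside 1.01% and 3.67% of all genes. In C57BL/6 10 were higher and 16 lower, beside 5.91% and 11.9% of all genes. In CAST/Ei 5 were higher and 10 lower, beside 2.71% and 7.95%. Kcnk18, a background potassium channel gene, had medians of 63.5 and 106.6 CPM against 0 and 8.66 CPM. The nociceptor sodium channel genes Scn10a and Scn11a had medians of 496 and 725 CPM and of 613 and 608 CPM. Scn1a, listed for large fibres, stood at 13.4 and 4.998 CPM against 96.03 and 63.6 CPM.

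Of 18 immediate early and injury genes, 7 were lower and 1, Gap43, higher in both strains over the summed reads. Of all genes 3.67% were lower and 1.01% higher. Per cell, the summed level of the 18 had medians of 1483 against 1508 CPM in C57BL/6 and 1550.0 against 1643 CPM in CAST/Ei. The medians were thus close, while the highest other naive cells, at 37075 and 37429 CPM, lay above the highest itch-type cells, at 11100.5 and 18624 CPM. Atf3, an injury-induced transcription factor, stood at 133.1 and 117.3 CPM against 368 and 245 CPM. Gap43, a protein of growing axons, stood at 697 and 796 CPM against 259.5 and 295 CPM.

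Compared between strains within the itch-type cells, 1051 genes (9.34%) were higher and 1055 (9.38%) lower in CAST/Ei. Among other naive cells 723 (6.43%) were higher and 760 (6.75%) lower. Fewer cells were summed in the itch-type groups, and the part of that in these counts was not tested. The median log2 ratio over all genes was 0.07 within itch-type cells and 0.05 within the other naive cells. Strain cannot be told apart from animal, dissection or chip run here. Whether CAST/Ei reads were placed on the reference genome as well as C57BL/6 reads was not tested for any gene, Car8 and Cbx3 below among them.

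Over all genes 9.34% were called higher and 9.38% lower in CAST/Ei itch-type cells. Most genes of the neuronal lists were likewise not called between the strains. The shares of the 4 lists below, over both directions, were somewhat above that of all genes, and that of the transduction genes lay near it. In lists this short a few genes make such a gap. Of 54 ion channel genes, 8 were higher and 7 lower in CAST/Ei itch-type cells, and of 28 transduction genes 2 and 4. Of 33 transcription factor genes 6 were higher and 3 lower, and of 23 neuropeptide and transmitter genes 6 and 0. Among these 6 is Tac1, at 166.4 and 588 CPM over the summed reads with nearly equal medians over cells, and 4 of the 5 CAST/Ei cells with 1000 CPM or more of it had Mrgpra3 under 200 CPM. The median log2 strain ratios of these 4 lists were 0.01, -0.02, 0.30 and 0.06, beside 0.07 over all genes. Of the 11 Mrgpr genes 5 were higher and 2 lower, the largest share of these 5 lists. In the other naive cells 5 and 2 were called as well. The median log2 strain ratio of the 11 was 0.92 in the itch-type cells and 1.29 in the other naive cells. The 5 include Mrgprb4, which chose cells, and the 2 are Mrgpra2a and Mrgpra2b, which share most of their windows.

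The highest genes of CAST/Ei itch-type cells by this ratio included the nicotinic receptor subunits Chrna3 and Chrnb4 and the proton-sensing receptor Gpr65. Chrna3 ran from 0 to 6.01 CPM in the C57BL/6 cells, none of which held 10 CPM, and from 0 to 763 CPM with a median of 215 in the CAST/Ei cells, 39 of which did. Chrnb4 stood at 0.203 and 71.6 CPM over the summed reads. Both genes were thus nearly missing from the C57BL/6 cells.

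Gpr65 had 2 reads in all 22 C57BL/6 cells and 4847 in the CAST/Ei cells, a ratio of CPM of 970 with an exact 95% interval of 268 to 8014, and 39 of 50 CAST/Ei cells held 10 CPM or more. In the other naive cells Gpr65 stood at 0.655 and 2.74 CPM and Chrna3 at 7.35 and 36.4 CPM. An antisense gene overlaps 24.7% of the exonic bases of Gpr65, and whether counting used strand is not given in the sources used here.

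Krt26, a keratin, and Fbln7, a fibulin of the extracellular matrix, had no read in the C57BL/6 itch-type cells. Set against a floor of 3 reads over that group, they were at least 488-fold and at least 349-fold higher in CAST/Ei. Lancl3 was called in opposite directions against other naive cells, at 1.42 against 17.3 CPM in C57BL/6 and at 93.1 against 29.8 CPM in CAST/Ei.

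Gad1, the enzyme that makes GABA, and the phospholipases Pla2g4e and Plcd3 were higher in CAST/Ei both inside and outside the itch-type cells. Gad1 had 3 reads in C57BL/6 itch-type cells and stood at 85.1 CPM in CAST/Ei ones, a ratio of 559 with an interval of 191 to 2711, against 0.578 and 81.97 CPM in other naive cells. Pla2g4e had 1 read and 50.7 CPM, a ratio of 999 with an interval of 179 to 39471. Plcd3 stood at 1.22 and 83.7 CPM, against 2.04 and 49.4 CPM.

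Dnase1l3, a secreted nuclease, headed the genes lower in CAST/Ei itch-type cells. It ran from 0 to 2670.0 CPM with a median of 1542 in the C57BL/6 cells and from 0 to 157.3 CPM with a median of 1.18 in the CAST/Ei cells. In other naive cells the medians were 9.07 and 0 CPM. Most C57BL/6 cells thus lay above every CAST/Ei cell, with 20 of 22 at 10 CPM or more.

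Kcnmb1, a subunit of large-conductance potassium channels, ran from 78.98 to 2075 CPM with a median of 869 in C57BL/6 and from 0 to 718 CPM with a median of 74.3 in CAST/Ei. Other naive cells stood at 109.4 and 112.5 CPM, and the log2 strain ratio was -2.96 inside and 0.04 outside the itch-type cells. Ifi27l2a, an interferon-induced gene, showed a like pattern, at 201 and 10.4 CPM inside and at 7.94 and 6.97 CPM outside. Casp1, the inflammatory caspase, stood at 70.3 and 7.23 CPM inside and at 15.2 and 19.6 CPM outside. Lins stood at 87.9 and 8.09 CPM inside and at 11.5 and 22.1 CPM outside, with 56.5% of its C57BL/6 itch-type reads in 1 cell.

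Car8, a protein related to carbonic anhydrase, had medians of 548 CPM in C57BL/6 and 3.96 CPM in CAST/Ei, and was higher in itch-type than other naive cells of both strains, which held 99.7 and 0.463 CPM. Cbx3, a chromatin protein, differed alike everywhere, at 557 and 33.7 CPM inside and at 479 and 32.98 CPM outside the itch-type cells, and 8.67% of its transcript windows are found in other genes, pseudogenes among them. Fgf12, a partner of sodium channels, stood at 988 and 66.9 CPM inside and at 1654 and 222 CPM outside. Ppp1r16b, Serpinf1 and Spry4 completed the named genes, with log2 strain ratios of -4.44, -3.82 and -3.82 inside and -4.01, -1.15 and -2.49 outside. Serpinf1 had a median of 13.1 CPM and a highest cell at 1380.0 CPM in C57BL/6 itch-type cells, and its ratio was -1.81 without the 25% of naive cells richest in glial and vascular markers.

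**Figure D4:**
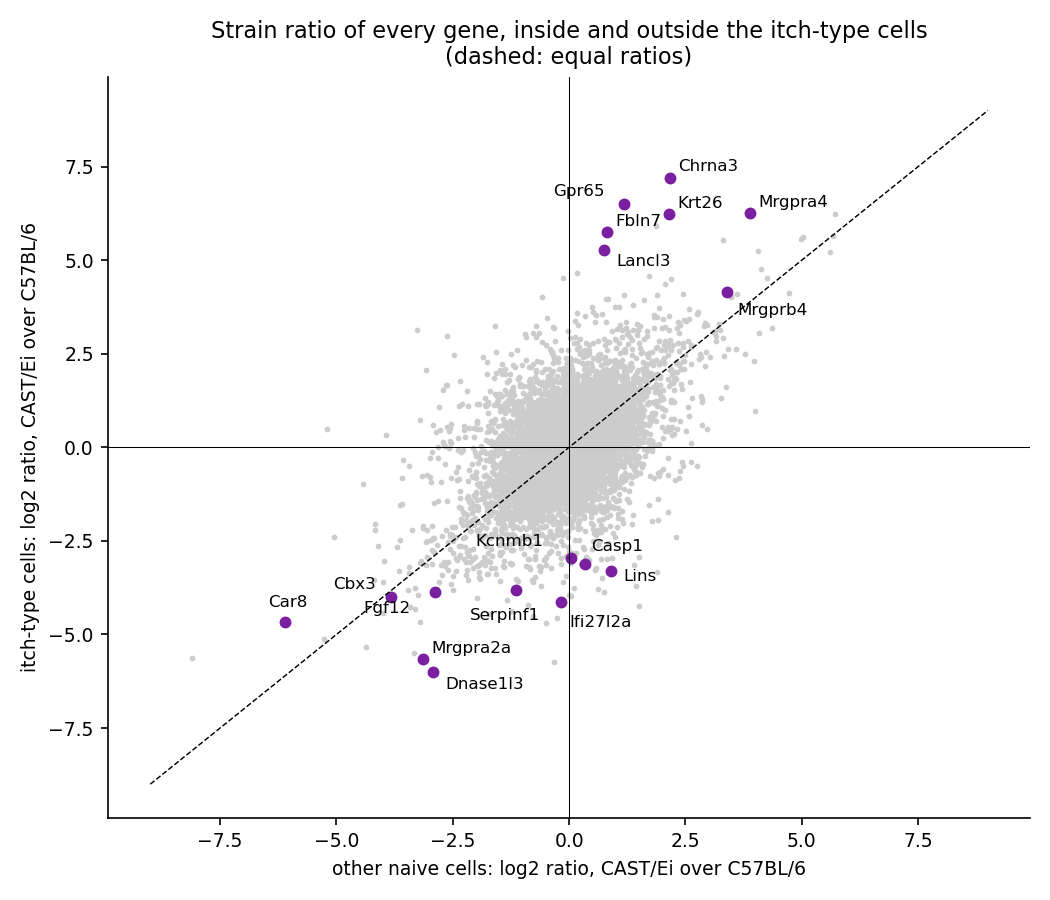
Log2 ratio of CPM + 1, CAST/Ei over C57BL/6, for each of 11251 genes in itch-type cells (vertical axis) and other naive cells (horizontal axis). The dashed line marks equal ratios. Cbx3 lies on it, Chrna3, Gpr65, Fbln7, Lancl3 and Krt26 above it, and Dnase1l3, Ifi27l2a, Casp1, Lins and Kcnmb1 below it. The heights of Gpr65, Krt26 and Fbln7, with 0 to 2 reads in C57BL/6, are set by the added 1 CPM.

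Since 40 CAST/Ei cells and 1 C57BL/6 cell held Mrgprb4, the strain values were also taken over cells with Mrgpra3 and without Mrgprb4, 21 and 10 in number, a choice made after the data were seen. Gpr65 then stood at 0.113 and 2.76 CPM, and Krt26 at 0 and 4.30 CPM. In the 40 CAST/Ei cells with Mrgprb4 they stood at 130.5 and 97.7 CPM, so both were high mainly where Mrgprb4 was. Chrna3 stood at 30.01 CPM in the CAST/Ei cells without Mrgprb4, held at 10 CPM or more by 2 of 10 cells, and at 256 CPM in those with it. The thrombin receptor gene F2r stood at 1.47, 5.19 and 49.3 CPM in C57BL/6 cells without Mrgprb4, CAST/Ei cells without and CAST/Ei cells with it, and Hopx at 12.2, 89.9 and 339 CPM in the same order.

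The named genes lower in CAST/Ei kept their direction in these cells. Dnase1l3 stood at 1484 and 35.04 CPM, Kcnmb1 at 971 and 185 CPM, Car8 at 543 and 10.5 CPM and Mrgpra2b at 172.5 and 0.973 CPM. Lancl3, at 1.59 and 89.1 CPM, and Trpa1, at 22.3 and 208 CPM, differed in the other direction. Of the 10 CAST/Ei cells, 5 are the cells with high Mrgprb5 described next and 5 had Mrgpra3 under 200 CPM.

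Among the CAST/Ei cells Mrgprb5 set a small group apart. In 7 of 50 cells it ran from 370.3 to 1875 CPM with a median of 1456, and the highest of the other CAST/Ei cells had 209 CPM. The division at 300 CPM was chosen after the values were seen, and no C57BL/6 itch-type cell passed it, the highest having 228 CPM. Of the 7 cells, 5 had at most 13.2 CPM of Mrgprb4 and 2 were among the cells with both Mrgpra3 and Mrgprb4. Outside the itch-type cells 33 CAST/Ei naive cells reached 300 CPM of Mrgprb5, 32 of them with Mrgprd at 100 CPM or more, and 1 C57BL/6 naive cell did. Over summed reads Mrgprb5 stood at 56.9 CPM in C57BL/6 and 324 CPM in CAST/Ei itch-type cells. In the other naive cells it stood at 20.2 and 289 CPM, so its strain gap was also there outside the itch-type cells.

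Hrh1, the histamine receptor gene, went with Mrgprb5 in CAST/Ei. It ran from 33.9 to 199.9 CPM with a median of 105.5 in the 7 cells and from 0 to 16.6 CPM in the 38 CAST/Ei cells with Mrgprb4 and less Mrgprb5, 34 of which had no read of it. In C57BL/6 its median was 40.4 CPM. The groups of 7 and 38 did not overlap.

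Other genes were divided the same way, over summed reads. These genes were named for their ratio between the groups. Gda stood at 366 CPM in the 7 cells and 26.2 CPM in the 38, the purine receptor gene P2rx2 at 124.4 and 3.72 CPM, the netrin receptor gene Unc5d at 192 and 6.79 CPM, and Crym, which binds thyroid hormone, at 95.1 and 0.465 CPM. C57BL/6 itch-type cells held 252 CPM of Gda, 22.8 of P2rx2, 49.02 of Unc5d and 28.6 of Crym, between both groups in each case.

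On the other side stood Chrnb4, at 1.30 CPM in the 7 cells and 92.9 CPM in the 38, Agtr1a, an angiotensin receptor gene, at 3.81 and 54.8 CPM, and Pde10a, a phosphodiesterase, at 6.32 and 102.4 CPM. Gpr65 had a median of 9.23 CPM in the 7 cells and 124.8 CPM in the 38, and Chrna3 of 0.681 and 241 CPM.

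In other genes the 7 cells were unlike the C57BL/6 cells. Mrgpra4 ran from 10.2 to 623 CPM in them, against 0 to 45.8 CPM with a median of 3.64 CPM in C57BL/6, so the ranges overlapped. Dnase1l3 and Kcnmb1 had medians of 1.02 and 195 CPM against 1542 and 869 CPM, with ranges over cells that overlapped for both genes. The 7 cells were picked on these data, so their differences are a description.

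**Figure D5:**
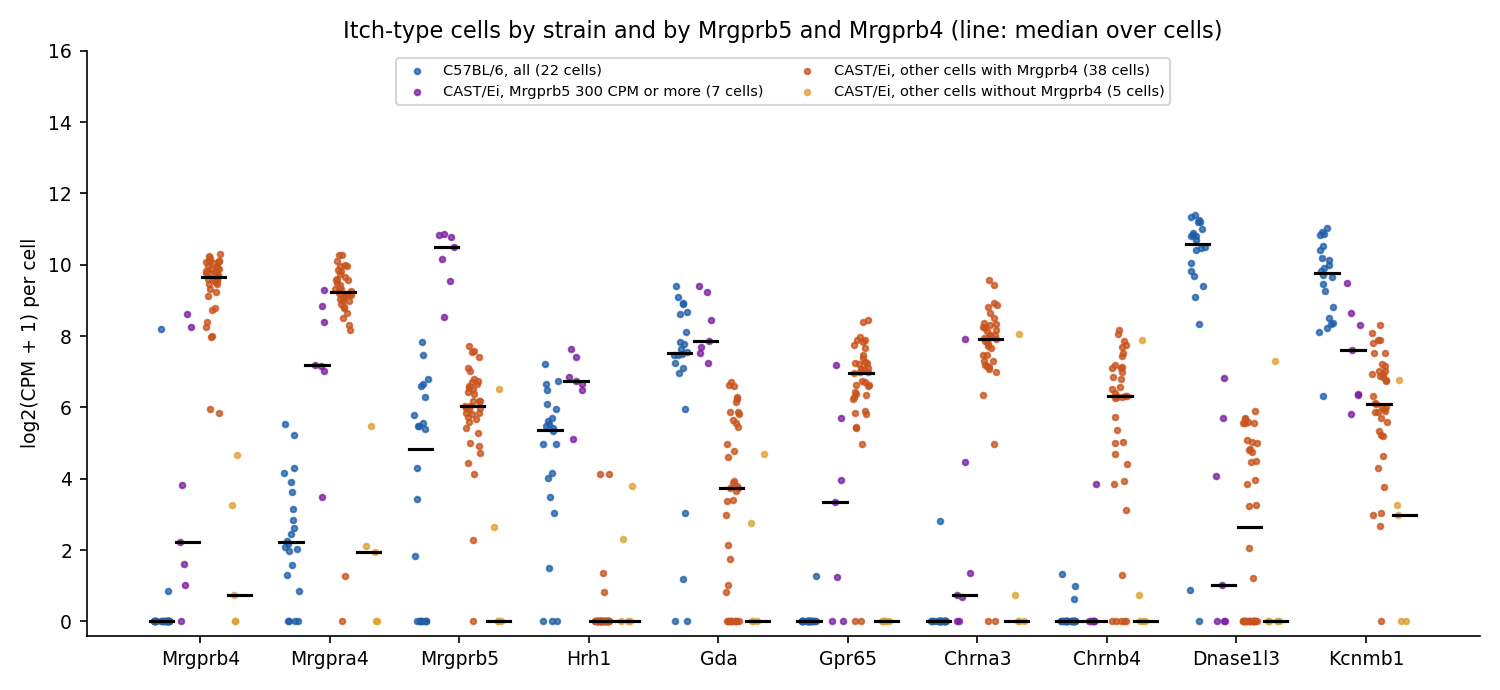
Level per cell, log2(CPM + 1), of 10 genes in the 22 C57BL/6 itch-type cells, the 7 CAST/Ei cells with Mrgprb5 at 300 CPM or more, and the other CAST/Ei cells with (38) and without (5) Mrgprb4, with a line at the median. Hrh1 and Gda sit high in C57BL/6 and in the 7 cells, Gpr65, Chrna3 and Chrnb4 in the 38 cells, and Dnase1l3 in C57BL/6.

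Markers of other cell types were present at levels that differed between the groups. The summed level of 21 glial markers ran from 1465 to 47661 CPM with a median of 2296 in the C57BL/6 itch-type cells and from 1498 to 88536 CPM with a median of 2709 in the CAST/Ei ones, against medians of 5049 and 3418 CPM in other naive cells. Sox10, Kcnj10, Cdh19, Erbb3 and Gfap had a median of 0 in both itch-type groups. Of the 21, 1 was higher and 2 were lower in itch-type than other naive cells of both strains, beside 1.01% and 3.67% of all genes. Between the strains 1 was higher and 9 were lower in CAST/Ei itch-type cells, beside 9.34% and 9.38% of all genes. The median log2 strain ratio of the 21 was -0.82, and it turned to 0.45 without the 25% of naive cells richest in glial and vascular markers and to 0.38 without the cells under 200 CPM of Mrgpra3.

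The summed level of 12 fibroblast markers had medians of 16096 and 4622 CPM in itch-type cells against 11803 and 5486 CPM in others. Fstl1, which neurons also express, alone had medians of 14253 and 4386 CPM in the itch-type cells, while Col1a1, Col3a1, Lum and Pdgfra had a median of 0. Of the 12, 10 were lower in CAST/Ei than C57BL/6 itch-type cells, beside 9.38% of all genes. The median log2 ratio of the 12, -2.64, turned to 0.89 without the 25% of naive cells richest in glial and vascular markers. Without the cells under 200 CPM of Mrgpra3 it turned to 0.56.

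The 16 endothelial and mural markers had summed medians of 648 and 127.6 CPM against 78.8 and 59.8 CPM. Of them 0 were higher and 7 lower in itch-type cells of both strains (all genes: 1.01% and 3.67%). Rgs5 alone had medians of 346 and 12.4 CPM, while Pecam1, Cdh5 and Kdr had a median of 0. Of the immune markers 1 of 15 is in the table, Cd68, with a median of 0, and of the erythroid markers 0 of 6.

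Without the 25% of naive cells richest in glial and vascular markers, which took 6 C57BL/6 and 11 CAST/Ei itch-type cells, the log2 strain ratio was 7.81 for Chrna3, 6.82 for Gpr65, -5.75 for Dnase1l3, -4.61 for Car8 and -4.54 for Mrgpra2b. The ratio of Serpinf1 was -1.81 in place of -3.82, the value that moved most among the 20 genes named by their strain ratio. The other 14 ran from 6.36 for Krt26 to -5.54 for Mrgpra2a, and all 20 had the sign of the reported ratio. They were named for the size of that ratio in largely the same cells, so the kept signs are a description.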

How the data were processed

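Single cells of mouse dorsal root ganglia were sequenced, and 516 columns were mapped to cells by name. The authors deposited 1 table of whole-number read counts of 11251 genes, each with a read in at least 60 cells. Bowtie2, SAMtools and the build mm10 are named, per the submitters' processing notes, while the counting program, the annotation and any filters were not given in the sources used here. Cells held 13932 to 2978345 reads, and 0 pairs of columns were identical. Doublets were not called.

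The members, gene lists and comparisons were chosen with earlier results of these data known. Reads of each gene were summed over the cells of a group, scaled to CPM and compared as log2 ratios of CPM + 1, itch-type minus other naive cells and CAST/Ei minus C57BL/6. A gene was called at a difference of 2-fold or more with 10 CPM in the higher group. Intervals are exact 95% Poisson or Clopper-Pearson intervals. With 1 sample per strain no test was run. Ratios against 0 reads use a floor of 3 reads over the group.

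Genes were named by rule: the 14 highest and 10 lowest by mean ratio against other naive cells, the 10 highest and 10 lowest by strain ratio, and the 5 highest and 5 lowest by the difference of strain ratios inside and outside the itch-type cells. Each needed 50 CPM and detection at 10 CPM in 50% of the higher group's cells, and any gene of the fixed lists could be named. The same rule for cells with Mrgpra3 alone against Mrgprb4 alone could not be applied, with 0 and 2 cells of the latter. Genes that divide the CAST/Ei cells by Mrgprb5 were picked after their values were seen.

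Alternatives were other minimums and limits of the rule, another pseudocount, other scaling, no CPM minimum for calls, leaving out shallow cells, and leaving out the 25% of naive cells with most glial and vascular markers. After the data were seen, Mrgprd-type cells as the reference, cells without Mrgprb4, and leaving out cells under 200 CPM of Mrgpra3 were added. The programs were tested on simulated data. Python 3.11.15, numpy 2.4.6, pandas 2.3.3, scipy 1.17.1 and matplotlib 3.10.9 were used. Sequences are from RefSeq and gene models from GENCODE M21.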

Additional observations from a re-analysis of the deposited data

Results flagged for a closer look

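Of the 99 cultured CAST/Ei cells, 1 met the same rule, a share of 1.01% (exact Clopper-Pearson 95% interval 0.0256 to 5.50%), and none of the cultured C57BL/6 cells did, which allows a share of up to 3.27%. The cell held 1333410 reads, with 788 CPM of Mrgpra3, 388 CPM of Mrgprb4, 599.97 CPM of Mrgpra4, 262 CPM of Gpr65 and 4209 CPM of Calca. It also held 403 CPM of Atf3, an injury-induced gene.

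Some genes were called in opposite directions in the strains when itch-type cells were set against other naive cells, and the differences below, CAST/Ei ratio minus C57BL/6 ratio on the log2 scale, were not tested. For genes outside the lists of glial, fibroblast and vascular markers the difference was 2.90 for Hopx, 4.53 for Lancl3, -3.46 for Casp1 and -4.18 for Lins. Among those markers it was -2.36 for Apoe, -2.76 for Fabp7, -4.21 for Kcnj10, -3.93 for Col3a1, 4.05 for Mgp and 2.68 for Tek.

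Single cells held much of the reads of several of these. In C57BL/6, the itch-type cell with most reads of the gene held 97.4% of Col3a1, 62.6% of Fabp7, 56.5% of Lins, 53.4% of Apoe and 51.4% of Kcnj10. For Mgp and Lancl3, low there at 6.65 and 1.42 CPM, it held 69.5% and 67.9%. In CAST/Ei such a cell held 83.9% of the Mgp reads, 72.9% of Kcnj10, 69.5% of Col3a1, 60.6% of Fabp7 and 55.1% of Tek. Without the 25% of naive cells richest in glial and vascular markers, the C57BL/6 and CAST/Ei ratios were -1.72 and 1.65 for Hopx, -2.37 and 1.49 for Lancl3, 1.72 and -0.51 for Casp1, and 1.48 and -0.63 for Lins. They were -4.55 and -0.31 for Apoe, -3.83 and -0.74 for Fabp7, -1.89 and -0.77 for Kcnj10, -1.10 and -0.77 for Col3a1, -0.56 and 0.04 for Mgp, and 1.20 and 0.19 for Tek.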

How the results depend on the processing

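The values that named genes took under the alternatives numbered 858, of which 858 had the sign of the reported value and 848 were at least 2-fold apart in the same direction. The genes were named for the size of these ratios in largely the same cells, and Mrgpra3 among them chose the cells. Kept signs were therefore likely from the start and are a description. Of 627 list medians, 82 had another sign than reported and 4 of the 82 had a reported median at least 2-fold apart. The glial marker median of the strain comparison turned from -0.82 to 0.45 without the 25% of naive cells richest in glial and vascular markers. The fibroblast marker median of the strain comparison turned from -2.64 to 0.89 without the 25% of naive cells richest in glial and vascular markers and to 0.56 without cells under 200 CPM of Mrgpra3. Against Mrgprd-type cells, the median of the Nppb and Sst-type genes in CAST/Ei turned from -1.46 to 0.97 and that of the peptidergic genes in C57BL/6 from -1.37 to 1.34. The cause was not tested. Genes lower in both strains, 413 as reported, numbered 659 with a 100 CPM minimum, 243 with no upper limits, 209 with a pseudocount of 10 CPM, 646 with no CPM minimum for calls, 185 against Mrgprd-type cells and 792 without cells under 200 CPM of Mrgpra3. Those higher in both, 1.01% of genes, numbered 62 with the pseudocount of 10 CPM and 280 against Mrgprd-type cells. That pseudocount also gave 511 genes higher and 588 lower in CAST/Ei itch-type cells. With no upper limits 39.7% of naive CAST/Ei cells were itch-type. No paired analysis was possible because replicate numbers are cell numbers that pair no cells, and no test was run. Cells with few reads limit what can be said of genes near 10 CPM.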
